A study of Macaca mulatta with 2 samples.

Results

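The G protein-coupled chemokine receptors CXCR3, CXCR4, CXCR5, CXCR6 and CX3CR1 were examined in circulating CD4+CD8+ double-positive (DP) T cells of 1 healthy male rhesus monkey, 6 years old. The 5 genes were found by name among the 35432 genes of the deposited table. Blood cells had been passed over CD4 magnetic beads and then over CD8 magnetic beads, and each cell was read by a 5′ RNA library and by a library of antibody tags against surface CD4 and CD8. Molecules were counted by unique molecular identifiers (UMIs). All cells came from the same animal, without treatment and without a comparison group. There was therefore no replicate, and every interval below is an exact 95% interval that covers counting error only.

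Chemokine receptors read gradients of small secreted proteins and steer leukocytes into and within tissues. CXCR4 binds CXCL12 and holds cells in bone marrow and lymphoid tissue, and nearly all T cells carry it. CXCR5 binds CXCL13 and leads B cells and follicular helper T cells into the B cell follicle. CXCR3 binds the interferon-induced ligands CXCL9, CXCL10 and CXCL11 and is carried by type 1 effector and memory T cells. CXCR6 binds CXCL16 and is linked to liver and mucosal residence, while CX3CR1 binds CX3CL1 on endothelium and marks cytotoxic effector cells that patrol the blood.

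In the RefSeq annotation of the Mmul_10 assembly, CX3CR1 (ENSMMUG00000065286) lies at chr2:94725701-94741488 and CXCR6 (ENSMMUG00000023587) at chr2:101948255-101953190. CXCR4 (ENSMMUG00000011918) lies at chr12:21291083-21294316, CXCR5 (ENSMMUG00000009316) at chr14:111946173-111958553 and CXCR3 (ENSMMUG00000032424) at chrX:68624847-68625943. CXCR6 sits inside FYCO1 on the opposite strand with no shared exon base, and CXCR5 shares exon bases with BCL9L, also on the opposite strand. The strand setting in the counting was not stated. FYCO1 stood at 7.49 CPM (UMIs of the gene per 1000000 UMIs of the cells concerned) in cells with a CXCR6 UMI and at 11.2 CPM in the others, a log2 ratio of -0.59 (-1.73 to 0.36). BCL9L stood at 35.2 CPM in cells with a CXCR5 UMI and at 28.2 CPM in the others, a log2 ratio of 0.32 (-0.06 to 0.69). The interval of each ratio included 0. The RefSeq model of CXCR3 is marked partial.

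Of 7923 barcodes, 7601 passed the study's cell filter, and 7311 of these held a UMI of CD3E, the T cell receptor component used here to define T cells. These T cells had a median of 3656 UMIs (quartiles 3001 and 4720). CD3D was detected in 92.9% of them and TRAC in 69.5%. Cells with B cell genes were present as well: 86 barcodes had at least 3 UMIs of 6 B cell markers and none of CD3D, CD3E or CD3G, and 512 T cells (7.003%) carried a B cell marker UMI. These 86 B gene cells served as the background. Both surface tags exceeded the level below which 90% of the B gene cells lay in 49.1% of T cells, the CD4 tag alone in 44.7%, the CD8 tag alone in 2.54% and neither in 3.60%.

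CXCR4 was by far the most abundant receptor, and the other 4 were sparse. CXCR4 gave 9749 UMIs in T cells, 324 CPM (317 to 330), and 65.3% of cells had at least 1. CX3CR1 gave 1926 UMIs, 64.0 CPM (61.1 to 66.9), in 17.4% of cells. CXCR3 gave 1338 UMIs, 44.4 CPM (42.1 to 46.9), in 15.05% of cells. CXCR5 followed with 401 UMIs, 13.3 CPM (12.0 to 14.7), in 4.10%, and CXCR6 with 282 UMIs, 9.36 CPM (8.30 to 10.5), in 3.52%. A 5′ tag counts a molecule once whatever its length, so these levels were not divided by transcript length. No 2 neighbours in the order had overlapping intervals over all T cells. Without the cells that carried a B cell marker UMI, CXCR5 dropped to 9.30 CPM (8.18 to 10.5) and overlapped CXCR6 at 10.0 CPM (8.84 to 11.3).

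Because deeper cells detect more genes, cells were also thinned to 2000 UMIs, which left out 376 of the T cells. The share of the 6935 thinned cells with a UMI was 45.3% (44.2 to 46.5) for CXCR4, 11.2% (10.5 to 12.0) for CX3CR1, 8.20% (7.57 to 8.88) for CXCR3, 1.95% (1.63 to 2.30) for CXCR6 and 1.93% (1.62 to 2.28) for CXCR5. Most detections were single molecules: 91.8% of CXCR6+ cells, 84.7% of CXCR3+ cells, 78.3% of CXCR5+ cells and 66.3% of CX3CR1+ cells had exactly 1 UMI, against 46.3% of CXCR4+ cells. A cell without a UMI is therefore not a cell without the receptor.

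The B gene cells gave a background for each receptor. None of the 86 had a UMI of CX3CR1 or CXCR6, at a median depth of 4137.5 UMIs. That allows a share of cells of up to 3.49%, taken as 3 counts of 86, or 4.20% as the exact upper bound. The CX3CR1 share of T cells, 17.4%, lay above both limits. The CXCR6 share, 3.52%, did not exceed the exact bound, so CXCR6 could not be told apart from its level in the B gene cells. CXCR5, a B cell receptor itself, reached 237 CPM (191 to 290) there, and CXCR4, which B cells also use, 222 CPM (178 to 273). CXCR3 stood at 30.2 CPM (15.6 to 52.8) in the B gene cells, and its thinned share was 6.33% (2.09 to 14.2). That interval covers the T cell value, so the overall CXCR3 level could not be told apart from the level in B gene cells.

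The clearest pattern was the joint appearance of CX3CR1 and GZMB, the serine protease that cytotoxic granules deliver into target cells. T cells with 0 GZMB UMIs (4038 cells) held CX3CR1 at 2.63 CPM (1.92 to 3.50). The level was 46.4 CPM (37.2 to 57.2) in the 503 cells with 1 to 2 GZMB UMIs, 127 CPM (116 to 138) in the 1115 cells with 3 to 9, and 191 CPM (181 to 202) in the 1655 cells with 10 or more. Each class lay above the one before it without overlap. The level in cells with 3 or more GZMB UMIs was 63.6-fold that in cells with none, a log2 ratio of 5.99 (5.57 to 6.45), and cells with 10 or more exceeded those with 3 to 9 by a log2 ratio of 0.59 (0.44 to 0.74). The thinned shares ran the same way, from 0.443% over 8.35% and 21.9% to 30.6%. Without B marker cells the ratio was 5.99 again (5.55 to 6.47). The median depth was 4048.5 UMIs at 0 GZMB UMIs and 3303 at 3 or more, and the part of depth was not tested. In the B gene cells 2 of 86 had 3 or more GZMB UMIs, 2.33% (0.283 to 8.15), against 37.9% of T cells. At least 1 was found in 7 of 86, 8.14% (3.34 to 16.1), against 44.8% of T cells. The class with 1 to 2 GZMB UMIs, 6.88% of T cells, may therefore include cells with background GZMB only.

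**Figure D1:**
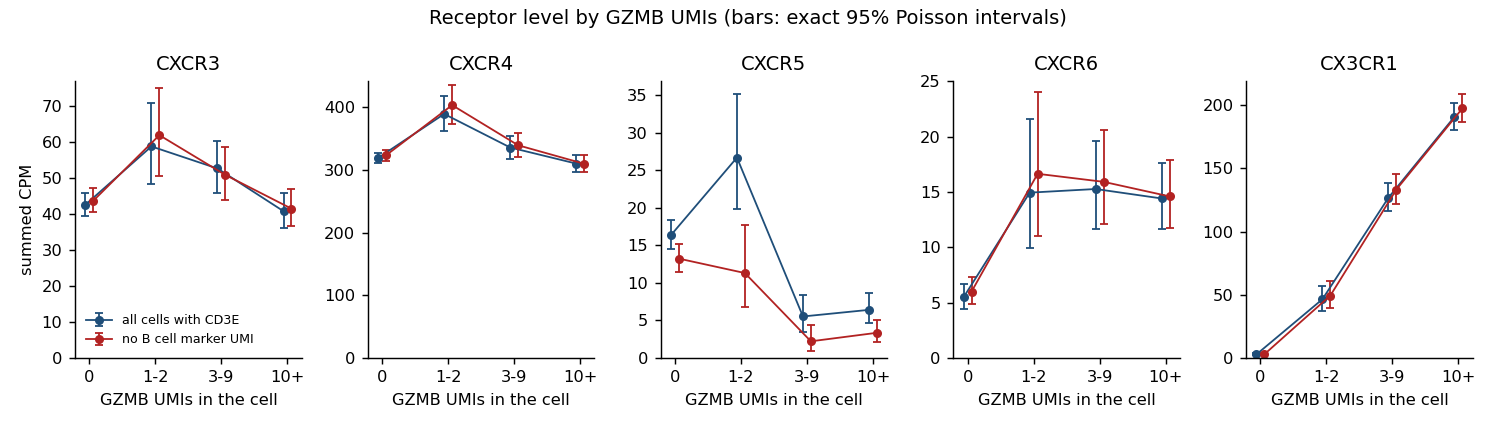
Summed level of each receptor (CPM, linear axes from 0) in T cells grouped by GZMB UMIs, for all cells with CD3E (blue) and for those without a B cell marker UMI (red). Bars are exact 95% Poisson intervals. In all cells with CD3E, CX3CR1 goes from 2.63 to 191 CPM and CXCR4 stays between 310 and 389 CPM. Without a B cell marker UMI, CX3CR1 goes from 2.73 to 198 CPM and CXCR4 stays between 310 and 403 CPM. CXCR5 is lower in both classes with 3 or more GZMB UMIs, and CXCR6 has 1 step between 0 and 1 to 2 UMIs.

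Read from the receptor, the relation ran the same way but with a smaller fold. GZMB stood at 797 CPM in cells with 0 CX3CR1 UMIs, at 3116 CPM with 1, at 3805 CPM with 2 and at 4170 CPM (4005 to 4341) with 3 or more. At least 3 GZMB UMIs were present in 26.6%, 89.7%, 95.7% and 95.3% of these cells. CX3CR1+ cells thus lay almost wholly among GZMB+ cells. Of the cells with 3 or more GZMB UMIs, 42.0% had a CX3CR1 UMI at full depth and 27.2% (25.5 to 29.0) after thinning. These cells had a median of 11 GZMB UMIs, but only 1793 CX3CR1 UMIs over 2770 cells. Many cells without a CX3CR1 UMI may thus carry the receptor, and the 2 directions cannot be compared by detection.

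**Figure D2:**
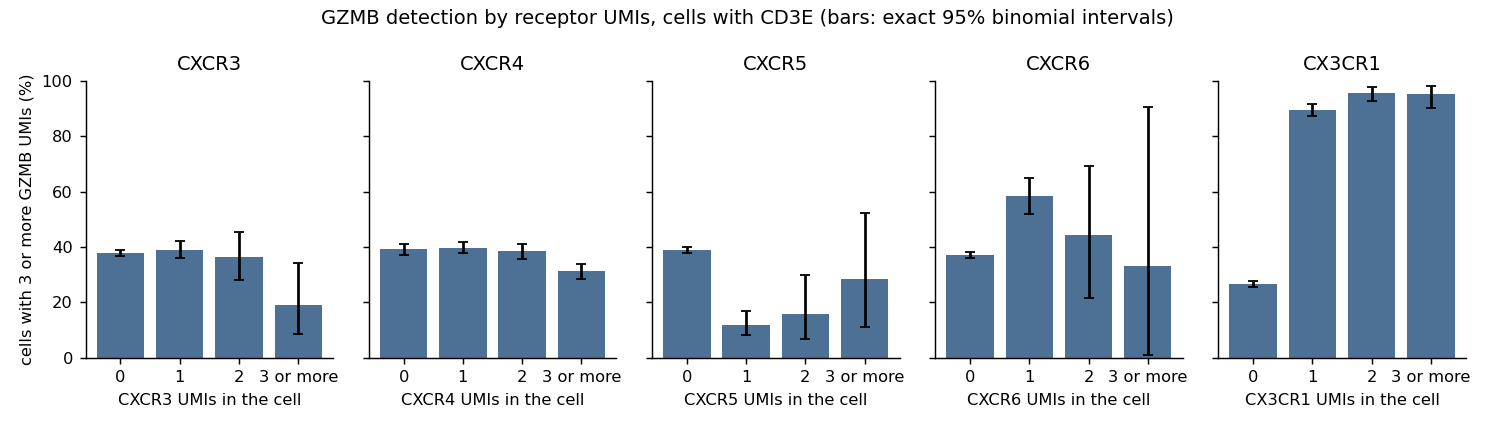
Percentage of T cells with 3 or more GZMB UMIs, by the number of UMIs of each receptor in the cell. Bars start at 0 and the whiskers are exact 95% binomial intervals. The share goes from 26.6% to 95.3% with CX3CR1 UMIs and is lower in cells with 1 or 2 CXCR5 UMIs than in cells with 0, and the classes of 2 and of 3 or more CXCR6 UMIs hold only 18 and 3 cells.

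CXCR6 was also higher in GZMB+ cells, in a single step. Its level was 5.48 CPM (4.44 to 6.70) at 0 GZMB UMIs, 14.9 CPM (9.92 to 21.6) at 1 to 2, 15.3 CPM (11.7 to 19.6) at 3 to 9 and 14.4 CPM (11.7 to 17.6) at 10 or more. The 3 classes with GZMB overlapped each other and lay above the class without. The log2 ratio of 3 or more against 0 was 1.43 (1.05 to 1.81), or 2.69-fold, and that of 10 or more against 3 to 9 was -0.08 (-0.56 to 0.40). Among CXCR6+ cells 57.2% had 3 or more GZMB UMIs, against 37.2% of the other cells.

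CXCR5 ran in the opposite direction. It stood at 16.3 CPM (14.5 to 18.3) with 0 GZMB UMIs and 26.7 CPM (19.8 to 35.2) with 1 to 2, but at 5.50 CPM (3.45 to 8.33) with 3 to 9 and 6.39 CPM (4.62 to 8.60) with 10 or more. The log2 ratio of 3 or more against 0 was -1.43 (-1.84 to -1.04). B cell RNA moved with this receptor: 28.0% of CXCR5+ cells carried a B cell marker UMI against 6.10% of the others, and the summed B marker level was 602 CPM against 40.9 CPM, with all 6 markers detected in both. Among the cells without such a UMI the 4 classes read 13.2, 11.3, 2.19 and 3.33 CPM, and the log2 ratio was -2.18 (-2.80 to -1.61). The gap to GZMB+ cells was therefore larger without the B marker cells, and the maximum at 1 to 2 GZMB UMIs was gone.

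CXCR3 and CXCR4 were spread over both compartments. CXCR3 stood at 42.5, 58.7, 52.5 and 40.7 CPM across the 4 classes, with a log2 ratio of 0.09 (-0.08 to 0.25) for 3 or more against 0. Its intermediate class, 58.7 CPM (48.2 to 70.7), lay above the 0 class at 42.5 CPM (39.5 to 45.7) and above the class with 10 or more at 40.7 CPM (36.0 to 45.8). CXCR4 stood at 319, 389, 336 and 310 CPM, and its highest class again was that with 1 to 2 GZMB UMIs (362 to 419). The interval of the CXCR4 log2 ratio of 3 or more against 0 was -0.06 to 0.06. Cells with 10 or more GZMB UMIs lay below those with 3 to 9 for both receptors. The log2 ratio was -0.37 (-0.63 to -0.10) for CXCR3 and -0.11 (-0.21 to -0.015) for CXCR4. Without B marker cells these were -0.29 (-0.57 to -0.014) and -0.13 (-0.24 to -0.03). Of all 10599 genes compared between 3 or more and 0 GZMB UMIs, 3.28% differed at least 2-fold on CPM + 10, where the group with more had to hold 20 UMIs. CX3CR1 was the 1 of the 5 receptors that did, at a log2 ratio of 3.81 on that scale.

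The level of surface CD8 gave a different order. T cells were split into quintiles at 168, 278, 424 and 648 CD8 tag UMIs. In the B gene cells the median was 139.5 CD8 tag UMIs, and 90% of these cells lay below 330.5. The lowest quintile and quintile 2 therefore lay under that background level, and quintile 3 (279 to 424) spanned it. Differences among these quintiles may not reflect graded surface CD8. The quintiles differed in other respects: 3 or more GZMB UMIs were present in 23.7%, 44.9%, 46.5%, 41.1% and 33.3% of the cells from the lowest to the highest quintile. The highest quintile was also deeper, with a median of 4779.5 UMIs against 3356 in the lowest, and 190 of its 1462 cells carried a B cell marker UMI, against 4.39% to 6.04% of the cells in the others. Values without B marker cells are given beside the results they change, and the part of depth was not tested.

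CX3CR1 was highest in the middle quintiles of CD8 tag UMIs. It read 46.1 CPM (40.4 to 52.4) in the lowest quintile, then 83.4, 79.6 and 74.6 CPM, and 44.0 CPM (39.6 to 48.8) in the highest. Quintile 3 exceeded the lowest by a log2 ratio of 0.79 (0.56 to 1.02). The highest lay below quintile 3 by a log2 ratio of -0.85 (-1.06 to -0.65), or -0.67 (-0.88 to -0.46) without B marker cells. The log2 ratio of highest to lowest was -0.07 (-0.31 to 0.18), or 0.11 (-0.14 to 0.36) without B marker cells. That ratio depended on how cells were ranked. It was 0.75 (0.51 to 0.98) by the CD8 tag divided by RNA UMIs, 1.61 (1.35 to 1.88) by the CD8 share of both tags and 0.26 (0.0054 to 0.51) without the 5% of cells with most UMIs. Within cells with 3 or more GZMB UMIs the rise at low CD8 was gone: the quintiles read 185 (160 to 212), 185, 171, 192 and 123 CPM (110 to 136), so that the highest quintile stood apart from the other 4. The log2 ratio of highest to lowest there was -0.59 (-0.85 to -0.33), or -0.42 (-0.68 to -0.16) without B marker cells. It shrank to -0.16 once the 5% of cells with most UMIs were left out. In cells with 0 GZMB UMIs, CX3CR1 did not exceed 4.81 CPM in any quintile.

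CXCR6, at a far lower level, also read less in the highest quintile than in the middle. Its values were 8.91, 11.1, 13.2 (10.4 to 16.6), 8.34 and 6.69 CPM (5.04 to 8.71), and the highest quintile lay below quintile 3 by a log2 ratio of -0.98 (-1.51 to -0.46). Within cells with 3 or more GZMB UMIs the values were 22.0, 16.8, 17.7, 11.6 and 10.3 CPM, with a log2 ratio of highest to lowest of -1.09 (-1.93 to -0.25). The lowest quintile there held 24 CXCR6 UMIs and the highest 29, at median depths of 3154.5 and 5100 UMIs. Their thinned shares overlapped, at 3.81% (1.98 to 6.56) and 1.67% (0.722 to 3.26). Within cells with 0 GZMB UMIs the log2 ratio of highest to lowest was -0.03 (-1.07 to 1.04).

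CXCR5 was highest where surface CD8 was highest, and the difference was smaller without cells that held B cell RNA. Its quintiles read 10.3, 5.26, 10.5, 12.7 and 22.8 CPM (19.6 to 26.3), with a log2 ratio of highest to lowest of 1.14 (0.69 to 1.62). Without cells that carried a B cell marker UMI this ratio was 0.48 (-0.06 to 1.05), which no longer excluded equality. In cells with 3 or more GZMB UMIs the lowest quintile held 1 CXCR5 UMI and the highest 39, a log2 ratio of 3.92 with an interval of 1.35 to 9.26. Without B marker cells these were 0 and 13 UMIs. The median depth of these quintiles was 3154.5 and 5100 UMIs over all cells of the class. After thinning, 1 of 315 cells had a CXCR5 UMI in the lowest, 0.317% (0.0080 to 1.76). In the highest, 4 of 480 had one, 0.833% (0.228 to 2.12), so the thinned shares overlapped.

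Over all T cells, CXCR3 and CXCR4 differed little across the CD8 range. CXCR3 read 49.1, 49.9, 50.1, 37.0 and 39.5 CPM, a log2 ratio of highest to lowest of -0.31 (-0.55 to -0.07), or -0.25 (-0.52 to 0.016) without the 5% of cells with most UMIs, where the interval included 0. CXCR4 read 350, 335, 331, 298 and 314 CPM, a log2 ratio of -0.16 (-0.24 to -0.07). The CXCR4 direction turned to 0.16 when cells were ranked by the CD8 tag divided by RNA UMIs. Within cells with 0 GZMB UMIs the CXCR4 log2 ratio of highest to lowest was -0.26 (-0.37 to -0.15). Within cells with 3 or more it was 0.12 (-0.06 to 0.30), and the intervals did not overlap. Without B marker cells these ratios were -0.23 (-0.34 to -0.11) and 0.15 (-0.04 to 0.33). Of 9493 genes compared between the highest and lowest quintile, 0.411% differed at least 2-fold on CPM + 10, and none of the 5 receptors did.

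**Figure D3:**
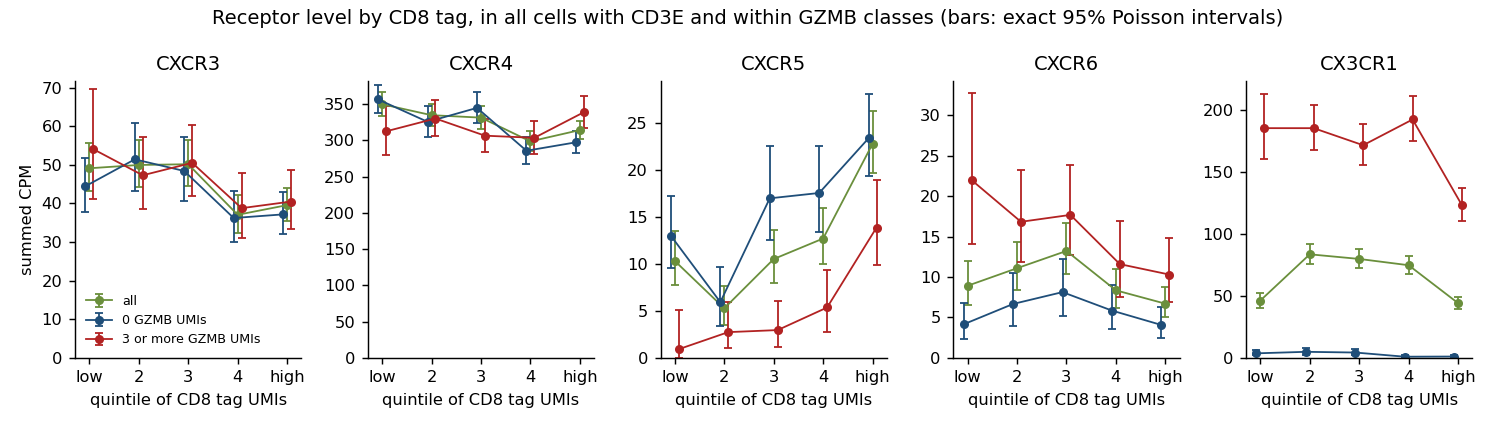
Summed level of each receptor (CPM, linear axes from 0) by quintile of CD8 tag UMIs, for all T cells (green), cells with 0 GZMB UMIs (blue) and cells with 3 or more (red). Bars are exact 95% Poisson intervals. In GZMB+ cells CX3CR1 stays between 171 and 192 CPM up to quintile 4 and is at 123 CPM in the highest.

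Detection of several receptors in the same cell was uncommon. Of the thinned cells, 78.2% had none of CXCR3, CXCR5, CXCR6 and CX3CR1. CX3CR1 alone was found in 711 cells, CXCR3 alone in 492, CXCR5 alone in 125 and CXCR6 alone in 93. The most frequent pairs were CXCR3 with CX3CR1 in 44 cells, CXCR3 with CXCR6 in 21 and CXCR6 with CX3CR1 in 16, and CXCR5 with CX3CR1 was found in 1 cell that had no other of these receptors. At full depth and with CXCR4 counted, 21.2% of the 7311 T cells had UMIs of 2 receptors, 3.13% of 3 and 0.274% of 4. UMIs of all 5 receptors were found in 1 cell.

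Pairs were then set against the number of cells expected if the 2 receptors were detected independently, summed within deciles of depth so that all UMIs could be used. CXCR5 and CX3CR1 were found together less often than expected: 18 cells had both where 49.6 were expected, a ratio of 0.36 (0.22 to 0.57). Leaving out B marker cells gave 10 cells against 35.8, a ratio of 0.28 (0.13 to 0.51). As these receptors ran in opposite directions with GZMB, the count was repeated within GZMB classes. Within cells with 3 or more GZMB UMIs and no B cell marker, 9 cells had both against 11.2 expected, a ratio of 0.81 (0.37 to 1.53), and within such cells with 0 GZMB UMIs none had both where 1.45 were expected. Averages over thinned draws inside the GZMB+ cells were lower, at 0.37 over all of them and 0.54 without B marker cells, and rested on 1.46 and 1.16 cells with both per draw. Too few cells had both to tell a deficit there from independence. CXCR5 and CXCR6 met in 5 cells against 12.7 expected, a ratio of 0.39 (0.13 to 0.92), and in 4 against 8.60 without B marker cells, where the interval reached 1.19.

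CXCR3 and CXCR6 were found together more often than expected. Both were present in 66 cells against 41.8, a ratio of 1.58 (1.22 to 2.01). The excess was present on either side of GZMB: the ratio was 1.71 (1.07 to 2.59) within cells with 0 GZMB UMIs and 1.56 (1.12 to 2.13) within cells with 3 or more. It was 1.58 (1.22 to 2.03) without B marker cells. Read as levels, CXCR3 stood at 74.9 CPM in CXCR6+ cells and 43.2 CPM in the others. CXCR6 and CX3CR1 also met more often than expected over all T cells, in 64 cells against 46.2, a ratio of 1.39 (1.07 to 1.77). Within cells with 3 or more GZMB UMIs this was 59 against 64.6, a ratio of 0.91 (0.70 to 1.18).

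For the remaining pairs the interval of the ratio included 1. CXCR3 with CX3CR1 had a ratio of 1.04 (0.90 to 1.19) and CXCR3 with CXCR5 one of 0.78 (0.56 to 1.04). Thinned cells gave lower values for CXCR3 with CX3CR1, at 0.77 (0.57 to 1.02) over all T cells, 0.73 (0.54 to 0.98) without B marker cells and 0.72 (0.52 to 0.97) within cells with 3 or more GZMB UMIs, and the average over all draws was 0.90. The 4 pairs with CXCR4 lay between 0.97 and 1.13, and the interval of each included 1. In single draws of thinned cells these ratios rested on few cells and changed with the draw. CXCR3 with CXCR6 gave 2.35 (1.53 to 3.44) in 1 draw and 1.40 in another, and averaged 1.70 over all draws. CXCR5 with CX3CR1 gave 0.13 (0.016 to 0.48) and averaged 0.12.

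**Figure D4:**
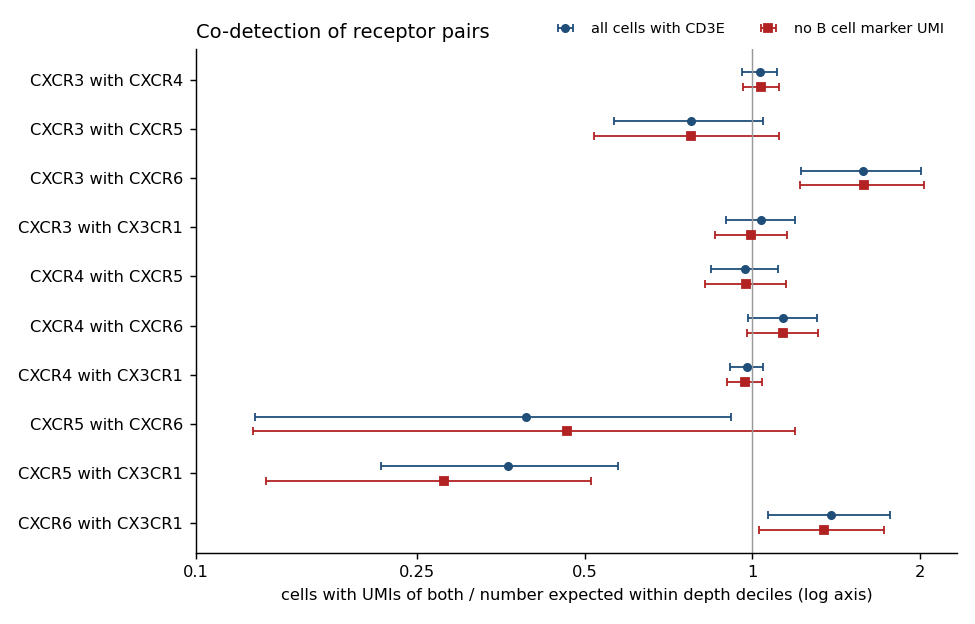
Cells with UMIs of both receptors divided by the number expected from independent detection within deciles of depth (log axis), for the 10 pairs, in all cells with CD3E (blue circles) and without B marker cells (red squares). Bars are exact 95% Poisson intervals of the observed count, and the grey line is a ratio of 1. Only CXCR3 with CXCR6 and CXCR6 with CX3CR1 lie wholly above 1 in both sets, and only CXCR5 with CX3CR1 lies wholly below 1 in both.

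The receptors were next measured in cells gated on genes other than the receptors, without B marker cells. Gates could overlap. CX3CR1 was at 174 CPM (166 to 182) in cells with 3 or more GZMB UMIs and next at 36.5 CPM (26.0 to 49.9) in cells with both EOMES, a T-box factor of memory cells, and GZMK, a granzyme of early effector memory cells. It lay at 20.9 CPM or less in the other 6 gates, down to 3.01 CPM, or 2 UMIs, in cells with FOXP3, the regulatory T cell factor. The first interval stood clear of the second, and no later neighbours were separated. Over all T cells, 30.2% of the cells with EOMES and GZMK also had 3 or more GZMB UMIs. The part of that overlap in their CX3CR1 level was not tested.

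The EOMES with GZMK gate held the highest level of 3 receptors. CXCR3 read 66.5 CPM (51.9 to 83.9) there, clear of the next gate, cells with GZMB, at 44.8 CPM (40.8 to 49.2). It was lower in cells with CCR4, at 14.2 CPM (7.34 to 24.8), and in cells with CXCL13 only 1 UMI was found. CXCR4 read 582 CPM (537 to 629) in the EOMES with GZMK gate, clear of FOXP3+ cells at 379 CPM (334 to 429), and was lowest in CXCL13+ cells at 216 CPM (166 to 277). CXCR6 read 22.5 CPM (14.4 to 33.4), not separated from GZMB+ cells at 15.1 CPM (12.8 to 17.7) or from cells with CCR6, the receptor of Th17 cells, at 14.9 CPM (10.5 to 20.4). In CXCL13+ cells CXCR6 had 0 UMIs.

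CXCR5 was highest in CXCL13+ cells at 34.8 CPM (16.7 to 64.1, 10 UMIs), followed by the EOMES with GZMK gate at 26.2 CPM (17.4 to 37.9) and CCR4+ cells at 21.3 CPM (12.6 to 33.7). No neighbours in this order were separated. The 4 highest gates, FOXP3+ cells included, all lay above GZMB+ cells at 2.91 CPM (1.95 to 4.19).

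**Figure D5:**
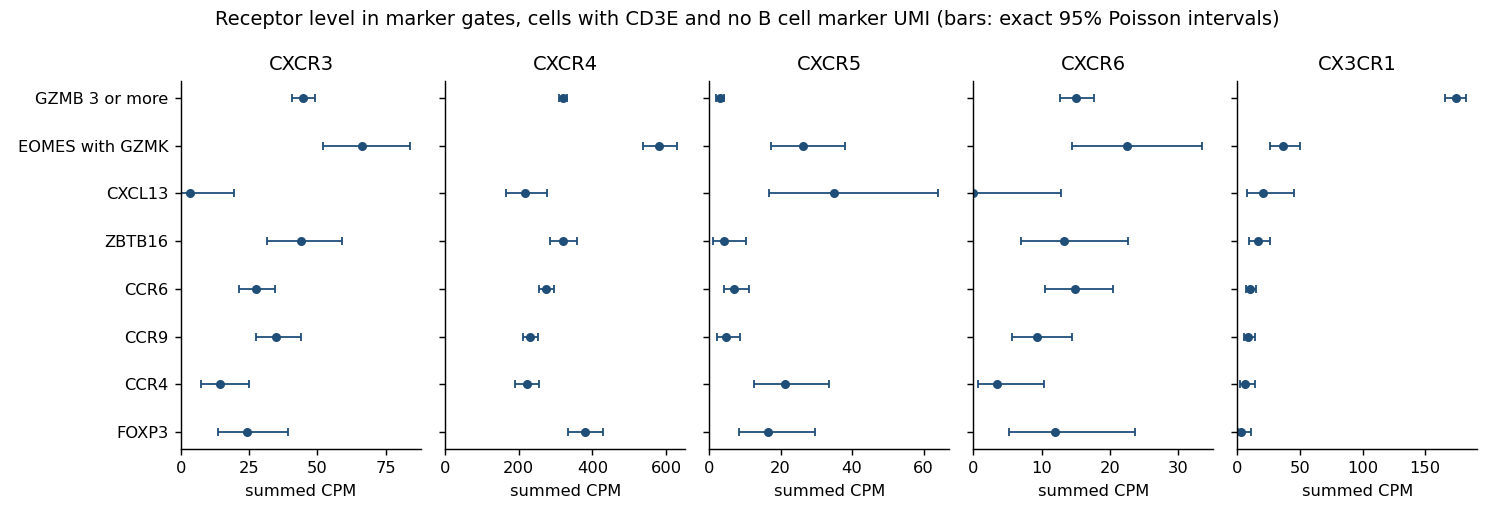
Summed level of each receptor (CPM, linear axes from 0) in 8 overlapping gates of T cells without a B cell marker UMI. Bars are exact 95% Poisson intervals. CX3CR1 is at 174 CPM in the GZMB gate and at most 36.5 CPM elsewhere, and CXCR4 and CXCR3 are highest in the gate of EOMES with GZMK.

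To see which genes went with each receptor, cells with and without its UMI were compared over all genes, again at a 2-fold difference on CPM + 10. The log2 ratios of named genes below are of CPM without that constant. The constant draws in the ratios of sparse genes, and cells without a UMI may still carry the receptor. With CX3CR1, 163 of 10279 genes passed 2-fold, or 1.59% (0.944% higher and 0.642% lower). Of the 14 cytotoxic genes compared, 12 were higher and none lower, with a median log2 ratio of 1.42 on the CPM + 10 scale against 0.08 over all genes. GZMB stood at 3400 CPM against 797 CPM, a log2 ratio of 2.09 (2.06 to 2.12). PRF1, the pore-forming perforin, stood at 163 against 53.5 CPM, 1.61 (1.49 to 1.74). ZEB2 and TBX21, transcription factors of terminal effector cells, had log2 ratios of 1.95 (1.84 to 2.06) and 1.69 (1.49 to 1.90). S1PR5, an egress receptor of effector cells, had one of 1.99 (1.74 to 2.24). The 5 genes with the largest ratio on the CPM + 10 scale were GZMB, ZEB2, the protease gene CMA1, the G protein regulator RGS9 and the granule gene NKG7.

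The 2 cytotoxic genes that did not pass 2-fold were GZMM, at 171 against 87.7 CPM, and GZMK, which was lower in CX3CR1+ cells at 185 against 267 CPM, a log2 ratio of -0.53 (-0.63 to -0.43). Among naive and recirculating genes, CCR7, at 30.0 against 168 CPM, LEF1, at 23.8 against 124 CPM, TCF7, at 25.4 against 95.5 CPM, and CD28, at 15.6 against 60.7 CPM, were lower in CX3CR1+ cells. KLF2, at 371 against 416 CPM, S1PR1, at 163 against 236 CPM, and IL7R, at 688 against 1248 CPM, did not pass 2-fold. Of the 7 other chemokine receptors compared, the lymph node and gut receptors CCR6, CCR7 and CCR9 were lower. CCR9 stood at 5.27 against 33.9 CPM. In follicular help genes only the checkpoint receptor PDCD1 passed, at 258 against 103 CPM, and in tissue retention genes only the integrin ITGA1, which was lower at 6.24 against 30.9 CPM. None of 21 signalling genes downstream of these receptors passed. NK cell markers were present in 57.2% of CX3CR1+ cells against 27.0% of the others, at 278 against 150 CPM. In the former 3 of 5 markers were detected, and in the latter all 5. Of the 4 markers compared, only KLRF1 passed 2-fold, and it was higher. With the constant added to CPM, the median log2 ratio of the 4 was 0.07, against 0.08 over all genes. Without B marker cells only 2 were compared, with a median of 0.86 against 0.09. The part of NK cell markers in these differences was not tested.

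Within the cells with 3 or more GZMB UMIs, the contrast nearly vanished. Only 8 of 8974 genes, or 0.0891%, passed 2-fold between the 1163 cells with and the 1607 cells without a CX3CR1 UMI, and no gene of the cytotoxic or naive lists was among them. CX3CR1 gave 1793 UMIs over these 2770 cells, so many cells without a UMI may still carry the receptor. The comparison therefore cannot show how cells without the receptor differ. GZMB itself differed by a log2 ratio of 0.17 (0.14 to 0.20), PRF1 by 0.18 (0.04 to 0.32) and S1PR5 by 0.17 (-0.09 to 0.43). The largest differences were TRBV10-1, a T cell receptor segment, at 65.2 against 26.4 CPM, and on the other side JCHAIN, at 1.47 against 26.6 CPM, and IRF8, at 2.10 against 20.6 CPM. Over all T cells both were concentrated, with 53.0% of the JCHAIN UMIs and 77.1% of the IRF8 UMIs in 10 cells each. Of the IRF8 UMIs, 27.4% lay in 1 cell. The concentration within the cells with 3 or more GZMB UMIs was not measured. In CX3CR1+ cells of this class CXCR4 was lower, at 299 against 336 CPM, a log2 ratio of -0.17 (-0.27 to -0.07).

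Because GZMB and CX3CR1 gave the steepest relation, the 250 bases upstream of both annotated starts are shown from the RefSeq annotation and sequence of Mmul_10, read along the gene. Both genes lie on the minus strand, CX3CR1 upstream at chr2:94741489-94741738 and GZMB upstream at chr7:86707260-86707509. The T-box letters GGTGTGA and the RUNX letters TGTGGTT were searched on both strands and would be in capitals. Neither stretch held an exact match, while 738 and 617 of 20572 such stretches of protein-coding genes did. That says nothing of factors bound there.
CX3CR1: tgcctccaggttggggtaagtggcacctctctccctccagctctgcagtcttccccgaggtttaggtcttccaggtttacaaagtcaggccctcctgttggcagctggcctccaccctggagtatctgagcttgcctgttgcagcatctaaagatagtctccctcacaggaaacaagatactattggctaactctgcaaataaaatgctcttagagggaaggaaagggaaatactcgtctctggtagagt
GZMB: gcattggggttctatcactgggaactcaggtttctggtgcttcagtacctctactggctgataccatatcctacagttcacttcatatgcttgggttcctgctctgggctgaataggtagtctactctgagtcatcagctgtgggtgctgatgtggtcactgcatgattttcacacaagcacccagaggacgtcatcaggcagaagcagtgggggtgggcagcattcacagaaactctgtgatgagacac

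CXCR6+ cells stood out by KLRB1, the lectin receptor CD161 of innate-like and Th17 cells. KLRB1 read 396 CPM in cells with a CXCR6 UMI and 145 CPM in the others, a log2 ratio of 1.45 (1.31 to 1.59). Within cells with 3 or more GZMB UMIs it read 394 against 218 CPM, 0.85 (0.66 to 1.04). In all, 28 of 8642 genes, or 0.324%, passed 2-fold, 0.197% in the lower direction, and the naive and recirculating genes CCR7, at 48.3 against 148 CPM, and LEF1, at 23.3 against 110 CPM, were among the latter. Inside the GZMB+ cells, where 0.415% of 7230 genes passed, LEF1 read 26.3 against 26.4 CPM, and CCR7 read 38.0 against 28.6 CPM, so neither was lower with CXCR6 there. Of 3 B cell markers compared in that class, MS4A1 passed at 54.1 against 16.1 CPM, and the median log2 ratio of the 3 on CPM + 10 was 0.76 against -0.09 over all genes. The part of B cell RNA in that comparison was not tested. None of the 14 cytotoxic genes compared over all T cells passed 2-fold. Their median log2 ratio on CPM + 10 was 0.48, against -0.02 over all genes. Within cells with 3 or more GZMB UMIs this median was -0.19, against -0.09. GZMK was closest at 483 against 243 CPM, a log2 ratio of 0.99 (0.87 to 1.11). None of the 7 tissue retention genes passed either, with ITGA1 at 32.5 against 26.4 CPM and ITGAE at 54.9 against 43.5 CPM. Their median log2 ratio on CPM + 10 was 0.22. The highest ratios otherwise belonged to T cell receptor segments: TRBV12-5 stood at 45.8 against 6.23 CPM, with 60.9% of its UMIs in 10 cells, TRBV14 at 64.1 against 19.8 CPM and TRBV11-1 at 97.4 against 37.7 CPM. The peptide hormone subunit gene CGA, at 24.96 against 5.33 CPM, had 65.8% of its UMIs in 10 cells. The share of cells with a B cell marker UMI was 4.67% in CXCR6+ cells and 7.09% in the others.

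CXCR3 had few companions at a 2-fold difference on CPM + 10. Only 7 of 10155 genes, or 0.0689%, passed 2-fold, and those lower (0.0394%) included HBB, HBA and CXCL13. HBB says little, since 1 cell held 99.6% of its UMIs, and 71.9% of those of HBA were in 1 cell. CXCL13, the ligand of CXCR5, gave 3 UMIs in the 1100 CXCR3+ cells and 280 in the others, 0.574 against 11.2 CPM, and came from 73 cells in all. Ranked on CPM + 10, KLRB1 was the highest gene with a symbol, at 244 against 136 CPM, a log2 ratio of 0.84 (0.75 to 0.94), short of 2-fold. None of 7 type 1 genes passed, with a median log2 ratio of 0.15 on CPM + 10 against -0.0026 over all genes. TBX21 read 29.9 against 27.0 CPM and IFNG 10.7 against 6.71 CPM. Genes as sparse as IFNG need a much larger ratio of CPM to pass. As 84.7% of CXCR3+ cells held exactly 1 UMI, many cells without one may carry the receptor. The comparison therefore cannot show how cells without CXCR3 differ.

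The company of CXCR3 differed with GZMB. In cells with 0 GZMB UMIs, where 0.187% of 9104 genes passed, CCL5, a chemokine of effector memory cells, stood at 157 CPM in CXCR3+ cells against 45.0 CPM, a log2 ratio of 1.80 (1.62 to 1.97). KLRB1 stood at 195 against 76.5 CPM, 1.35 (1.20 to 1.501). Of 10 cytotoxic genes compared there, CCL5 alone passed 2-fold on CPM + 10. GZMM, NKG7 and CST7 did not, with log2 ratios of 1.14 (0.93 to 1.35), 0.98 (0.88 to 1.09) and 0.89 (0.75 to 1.02). In cells with 3 or more GZMB UMIs, where 0.178% of 8442 genes passed, these differences were smaller or turned: CCL5 read 621 against 656 CPM and NKG7 1593 against 1936 CPM. The intervals of the CCL5 ratio did not overlap between the GZMB classes, at -0.17 to 0.01 in the GZMB+ cells against 1.62 to 1.97.

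The genes that went with CXCR5 were at first those of B cells. Over all T cells 152 of 9284 genes, or 1.64%, passed 2-fold, and the highest were EGR1, IGHM, MS4A1, MAMU-DRA and CD79B. Restricted to the 216 CXCR5+ and 6583 other cells without a B cell marker UMI, 99 of 8667 genes, or 1.14%, passed, 0.277% higher and 0.865% lower. EGR1 then read 1.82 against 8.38 CPM, where it had been at 545 against 20.7 CPM. In these cells 10 of 15 cytotoxic genes were lower and 1, GZMK, was higher. GZMB read 305 against 1358 CPM, CCL5 52.7 against 308 CPM and ZEB2 14.5 against 92.1 CPM. GZMK read 544 against 254 CPM, a log2 ratio of 1.10 (0.98 to 1.22). The lymph node homing receptor CCR7 was higher, at 341 against 132 CPM. Both NK cell markers compared were lower, KLRF1 at 19.98 against 78.7 CPM and TYROBP at 32.7 against 102 CPM, with a median log2 ratio of -1.48 on CPM + 10 against -0.11 over all genes, and their part in these differences was not tested. None of the 8 follicular help genes compared passed 2-fold: CXCL13 read 20.9 against 9.73 CPM, ICOS 38.1 against 27.1 CPM and PDCD1 83.6 against 140 CPM. BCL6, the follicular helper factor, gave 2 UMIs in CXCR5+ cells.

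CXCR4, present in most cells, went with very few genes. Of 10472 genes, 3 passed 2-fold, or 0.0286%, and the 2 lower were HBB and HBA. EGR1, CD83 and NR4A1, genes of recent activation, led the higher side with log2 ratios of 1.18 (0.99 to 1.37), 1.38 (1.06 to 1.70) and 1.51 (1.12 to 1.91). Without B marker cells these were -0.29 (-0.69 to 0.13), 0.57 (0.09 to 1.06) and 0.03 (-0.59 to 0.69). GZMK and EOMES then led, at 301 against 192 CPM and 19.9 against 11.4 CPM, with log2 ratios of 0.65 (0.58 to 0.73) and 0.80 (0.48 to 1.14).

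Ligands of the receptors other than CXCL13 were nearly absent from these cells. Of CXCL9, CXCL10, CXCL11, CXCL12, CXCL13, CXCL16 and CX3CL1, 4 had no UMI in T cells. Only CXCL13, with 283 UMIs in 73 cells, had enough to be compared.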

How the data were processed

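The authors processed the 5′ RNA and antibody-tag libraries of 1 rhesus monkey with Cell Ranger (3.1.0), STAR (2.5.1b) and Seurat (3.1.3), per the labels and methods, against Mmul_10, and deposited raw UMI counts of 35432 genes and 2 tags for 7923 barcodes. Cells of 200 to 4000 genes with a mitochondrial share up to 20% were kept, as in the study. The study's limit of at least 3 cells per gene was not applied in the comparisons of genes. T cells had a CD3E UMI. No doublet caller was run; values without cells carrying a B cell marker UMI, and without the 5% of cells with most UMIs, stand in for one. With 1 sample there was no test. Levels are summed counts per 1000000 UMIs (CPM) with exact Poisson intervals, and shares have exact binomial (Clopper-Pearson) intervals, at 95%. Cells were thinned to 2000 UMIs. Genes were compared on CPM + 10 requiring 20 UMIs in the group with more, a step tested on simulated data. Named genes were the receptors, gate genes, fixed lists and the 5 highest and 5 lowest genes with a symbol per receptor, and a gene named once was followed in other comparisons. One gene, and the gate that used it, are not reported here. Members and lists were chosen with earlier results of these data known. Pairs within deciles of depth and gene comparisons without B marker cells or within GZMB classes were added after seeing the data. Python (3.11.15), numpy (2.4.6), pandas (2.3.3), scipy (1.17.1) and matplotlib (3.10.9) were used.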

Additional observations from a re-analysis of the deposited data

Results flagged for a closer look

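Receptor UMIs were also present in barcodes that the comparisons above did not use. Among the 290 kept cells without a CD3E UMI, CXCR4 was detected in 41.4%, CXCR5 in 24.5%, CXCR3 in 8.62%, CX3CR1 in 8.28% and CXCR6 in 2.07%. Among the 322 barcodes that the cell filter left out, CXCR4 was detected in 46.3%, CXCR3 in 16.1%, CX3CR1 in 13.04%, CXCR5 in 7.14% and CXCR6 in 5.59%. Each share was above the limit that a count of 0 allows. The 86 B gene cells are among the cells without CD3E, and 54.7% of them had a CXCR5 UMI.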

How the results depend on the processing

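Of 357 values recomputed under other settings, 294 stayed within the interval of the reported value or, for counts of genes, within 1.5 times the reported count, 62 did not and 1 reversed. No paired analysis was possible because the series holds 1 sample. One animal gives no spread between animals, and sparse receptors are limited by depth, as follows. The share of cells with a UMI without thinning was 15.05% for CXCR3, 65.3% for CXCR4, 4.10% for CXCR5, 3.52% for CXCR6 and 17.4% for CX3CR1, and at 3000 UMIs 11.1%, 55.5%, 2.88%, 2.46% and 13.5%. Without B marker cells the CXCR5 share was 1.58%. The log2 ratio of 3 or more against 0 GZMB UMIs for CXCR5 was -2.18 without B marker cells, -2.58 without the deepest 5% of cells, -2.37 as a mean of per-cell CPM and -0.84 for 1 or more against 0. As a mean of per-cell CPM it was -0.10 for CXCR4 and 5.19 for CX3CR1. For the highest against the lowest CD8 quintile, CXCR4 reversed to 0.16 when the tag was divided by RNA UMIs, and CX3CR1 became 0.75 by that ranking, 1.61 by the CD8 share of both tags and 0.26 without the deepest 5%. CXCR3 became -0.63 by the share of both tags and CXCR5 0.52 without B marker cells, with quintiles redrawn. Within 3 or more GZMB UMIs, CX3CR1 became -0.16 without the deepest 5%. The cause of these changes was not tested. The CXCR5 ratio in that class was not run in 3 settings because the lowest quintile held 0 UMIs.

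Ratios of observed to expected pairs in a single thinned draw moved as follows. CXCR3 with CXCR6 was 1.40 with another draw. CXCR3 with CX3CR1 was 1.03 without thinning, 1.02 at 3000 UMIs, 1.04 within deciles of depth and 2.24 at 0 GZMB UMIs. CXCR5 with CX3CR1 and CXCR5 with CXCR6 were 0 with another draw and at 0 GZMB UMIs, the former also 0 without B marker cells, and at 3 or more GZMB UMIs they were 0.565 and 2.52. CXCR3 with CXCR5 was 3.80 and CXCR4 with CXCR5 0.505 at 3 or more GZMB UMIs, and CXCR6 with CX3CR1 was 5.50 at 0.

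Counts of genes past 2-fold depended on the constant added to CPM. With 1 instead of 10, the genes higher with CXCR3, CXCR4, CXCR5, CXCR6 and CX3CR1 numbered 34, 26, 167, 39 and 263, and those lower 53, 14, 382, 504 and 444. With 50, the higher numbered 0, 0, 27, 2 and 24, and the lower were 2 for CXCR3, 8 for CXCR5, 5 for CXCR6 and 9 for CX3CR1. Without the deepest 5% of cells, 0 genes were higher with CXCR3, 0 with CXCR4 and 46 with CXCR5, and 78 were lower with CXCR5 and 30 with CXCR6.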

Other observations

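Surface CD4 ordered the receptors differently from surface CD8. From the lowest to the highest quintile of CD4 tag UMIs, CX3CR1 read 148, 98.5, 49.0, 32.4 and 32.1 CPM, a log2 ratio of highest to lowest of -2.21 (-2.42 to -2.01). The share of cells with 3 or more GZMB UMIs was 62.5%, 51.4%, 28.6%, 19.6% and 27.0% over the same quintiles, and the median depth went from 3047 to 5179 UMIs. CXCR5 went the other way, at 6.42, 8.67, 14.7, 14.8 and 17.7 CPM, with a log2 ratio of 1.46 (0.88 to 2.09), or 1.83 (0.999 to 2.76) without B marker cells. CXCR3 read 30.3, 37.6, 48.1, 52.9 and 47.2 CPM, a log2 ratio of 0.64 (0.35 to 0.93). The CXCR6 ratio was -0.09 (-0.66 to 0.49) and the interval of the CXCR4 ratio was -0.18 to 0.00. The part of depth and of GZMB in these differences was not tested.

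MKI67, a marker of cycling cells, read 18.4 against 8.48 CPM with and without CXCR3, a log2 ratio of 1.12 (0.75 to 1.47), and 18.3 against 8.52 CPM with and without CX3CR1, a log2 ratio of 1.11 (0.74 to 1.46). Within cells with 3 or more GZMB UMIs, MKI67 read 25.9 against 12.2 CPM for CXCR3, a log2 ratio of 1.09 (0.59 to 1.58), and 17.5 against 12.6 CPM for CX3CR1, a log2 ratio of 0.48 (0.0074 to 0.95). None of these passed 2-fold on CPM + 10. The median depth was 4024.5 UMIs with and 3601 without CXCR3, and 3422 with and 3719 without CX3CR1. Within cells with 3 or more GZMB UMIs it was 3720.5 against 3264 for CXCR3 and 3431 against 3222 for CX3CR1. Of the MKI67 UMIs of all T cells, 21.8% lay in 10 cells. The part of depth in the MKI67 and TOP2A differences was not tested.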
